A study of Callithrix jacchus and Rattus norvegicus and Loxodonta africana with 31 samples.

Results

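Rat brain was compared with rat heart, kidney and liver. All 8 somatic columns of one gene expression table entered the comparison: the 2 columns named for brain against the 6 columns named for the other organs, 1 male and 1 female column per organ. They come from a series of 31 samples on the genes of the mammalian Y chromosome, 12 of them from rat. The labels list 4 rat brain samples, a frontal cortex and a cerebellum of each sex, while the table has 1 brain column per sex. Whether a brain column holds cortex, cerebellum or both is not stated. Every rat sample is labelled as individual 1 of its sex. The sources used here give no strain, age, treatment or genotype for these rats. With 1 animal per sex, sex and animal cannot be told apart, and p-values measure only the spread between these 8 libraries.

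The brain is built from neurons, which signal by electrical impulses and by chemical release at synapses, and from glia. Among the glia, astrocytes clear transmitters and buffer ions, oligodendrocytes wrap axons in myelin, and microglia act as resident immune cells. Heart muscle, kidney tubule and liver cells are rich in mitochondria and in enzymes for fat, amino acid and drug metabolism.

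The deposited unit is FPKM, a count of sequenced fragments divided by transcript length and by the size of the library. The FPKM of each library summed to 205700 and 209115 in brain, 588797 to 771007 in heart, 310638 to 570134 in kidney and 811569 to 1651290 in liver. Brain therefore had the lowest totals of the 4 organs, while it had the most genes at 1 FPKM or above, 11924 and 12321 against 10736 to 11782. The number of reads behind these values is unknown. Between the 2 libraries of an organ the median absolute difference was 0.22 in brain, 0.28 in heart, 0.40 in kidney and 0.32 in liver, on the log2(FPKM + 1) scale.

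Differences below are brain minus the mean of heart, kidney and liver on the log2(FPKM + 1) scale, ± the standard error of limma's fit, with Benjamini-Hochberg adjusted p-values over all 14547 genes tested. The added 1 understates the difference of genes with low levels. A gene was called higher or lower where the adjusted p was below 0.05 and the difference was at least 1. By this rule 2564 genes (17.6%) were higher in brain and 3937 (27.1%) were lower, and the median difference over all genes was -0.28. Scaling each library to a common median instead gave 3313 higher and 3008 lower, so that 52.4% of the called genes were higher in place of 39.4%, and moved the all-gene median to 0.05. List medians below are to be read against the all-gene median of -0.28.

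Against single organs, 2691 genes (18.5%) were higher and 3504 (24.1%) lower than in heart. The counts were 2522 (17.3%) and 3358 (23.1%) against kidney, and 3312 (22.8%) and 4148 (28.5%) against liver. These contrasts share the brain libraries. Both brain libraries lay above all 6 others for 2767 genes (19.0%) and below all 6 for 3256 genes (22.4%). Of the 2564 genes higher in brain, the other organ with the highest mean was heart for 960, kidney for 989 and liver for 538, and 77 were listed at 0 in all 6 other libraries. That organ could also lie above brain, as for Gja1 and Calb1 below. Of the 3937 lower genes, liver had the highest mean for 1989, heart for 1220 and kidney for 728.

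The 13 genes described here, of the 15 with the largest excess in brain among those with both brain libraries above every other library, included genes known from neurons, myelin and astrocytes. Snap25, a membrane protein that drives fusion of synaptic vesicles, led them. It measured 979 and 757 FPKM in the male and female brain libraries, 0 and 1.68 in heart, 0.523 and 0.291 in kidney, and 0.0518 and 5.21 in liver; values are given male then female throughout. The brain libraries stood far above the others, and the female liver library was the highest of the rest. The difference was 8.90 ± 0.57 (adjusted p = 3.17e-05).

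Mbp, the myelin basic protein that compacts the myelin sheath, came next. Its levels were 286 and 1709 FPKM in brain and 0.145 to 1.64 FPKM in the 6 other libraries, a difference of 8.48 ± 0.48 (adjusted p = 1.96e-05). The female brain library was well above the male one.

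Aldoc, the aldolase isozyme of brain, measured 465 and 495 FPKM in brain, 1.07 and 1.84 in heart, 0.542 and 0.677 in kidney, and 0.862 and 2.38 in liver. The pair of brain libraries lay close together and the groups did not overlap (7.81 ± 0.21, adjusted p = 5.46e-06). Eno2, the neuronal enolase, had 251 and 219 FPKM in brain and 0.23 to 1.18 elsewhere (7.17 ± 0.24, adjusted p = 5.46e-06). Syp, an abundant protein of the synaptic vesicle membrane, had 302 and 296 FPKM against 0.0462 to 2.3 (7.63 ± 0.34, adjusted p = 8.68e-06).

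Another 6 of these genes differed by 7.01 to 7.46. S100b, a calcium-binding protein of astrocytes, had 258 and 373 FPKM in brain. Bcat1, the cytosolic transaminase of branched-chain amino acids, had 205 and 456. Uchl1, a deubiquitinating enzyme of neurons, had 240 and 369, Vsnl1, a neuronal calcium sensor, had 241 and 168, and the tubulin Tubb4a had 203 and 245. Slc17a7, the glutamate transporter of synaptic vesicles, had 241 and 113. Their highest value in any heart, kidney or liver library was 2.75 FPKM, for S100b in female kidney.

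Ptgds and the gene 1700086L19Rik completed the set with wider spread. Ptgds, a prostaglandin D2 synthase of the meninges and glia, had 1366 and 1064 FPKM in brain, 10.9 and 15.8 in heart, 65.1 and 3.66 in kidney, and 0.15 and 10.2 in liver (6.97 ± 1.16, adjusted p = 0.00197). The male kidney library was its highest outside brain, and without the male brain library, with the same genes tested, the adjusted p was 0.0554. 1700086L19Rik had 225 and 235 FPKM in brain and 39.3 in female heart, and it was listed at 0 in the 5 other libraries (6.96 ± 1.05, adjusted p = 0.00128). Testing required 1 FPKM in 2 libraries. Eno2, Syp, Tubb4a, Vsnl1, Slc17a7 and 1700086L19Rik met this only with the help of the brain libraries, which favours high values in brain.

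**Figure D1:**
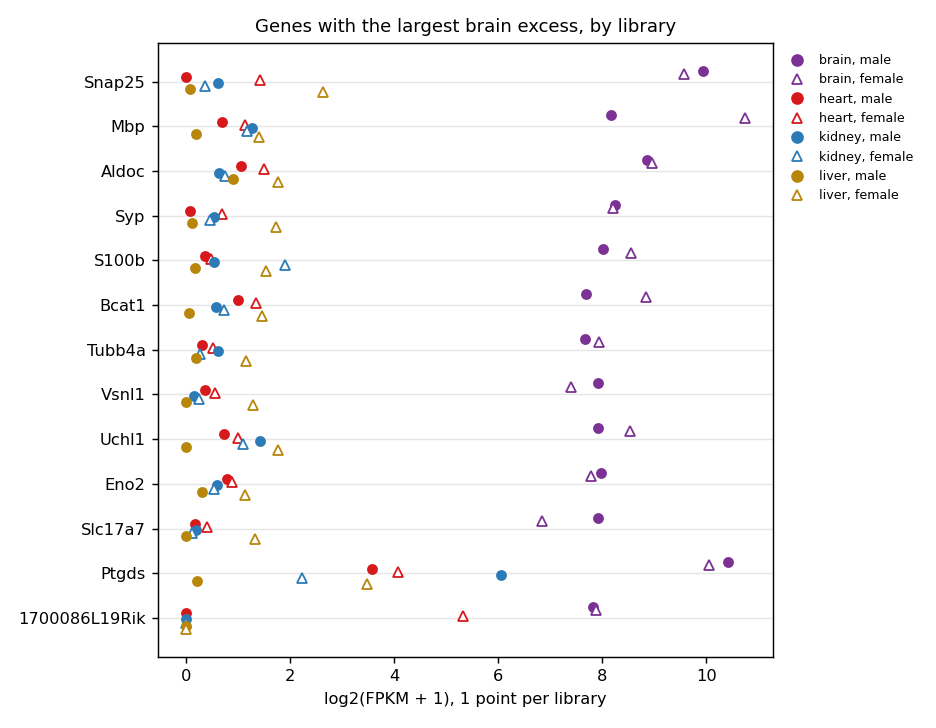
Levels of 13 of the 15 genes with the largest brain excess, as log2(FPKM + 1) on the x axis, 1 point per library, with organs by colour, filled circles for males and open triangles for females. The brain points lie to the right of every other point for each gene, and the female brain point is well right of the male one for Mbp (1709 against 286 FPKM).

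A further set was listed at 0 in all 6 heart, kidney and liver libraries: 949 genes had any level in brain, and 77 had at least 1 FPKM in both brain libraries. No fold is given for them. The highest was Smim18, which encodes a small membrane protein, at 52.8 and 57.4 FPKM. Gng4, a G protein gamma subunit, followed with 4.33 and 46.1 FPKM. Elavl4, a neuronal RNA-binding protein, had 14.96 and 17.6, and D430019H16Rik had 13.7 and 15.5. Gabrg1, a GABA receptor subunit, had 8.21 and 19.1, and Scrg1 had 7.02 and 14.6. For all 6 genes the female library was the higher one, by the widest margin for Gng4. Since FPKM tables can hold failed estimates as 0, a 0 here is a listed value only.

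A gene was tested if it reached 1 FPKM in 2 libraries, and 1432 of the 14547 genes did so only with the help of the brain libraries. For these genes the filter itself favours high values in brain, and 1206 of them were called higher. Of the 13115 genes that reached the filter in the other organs alone, 1358 (10.4%) were higher and 3937 (30.0%) lower. List counts below are split on this where a member passed only with the brain libraries. All 18 neuron genes tested were higher in brain, but 13 of them passed the filter only with the brain libraries. The other 5 were all higher. In bulk tissue, more cells of a type and more RNA per cell cannot be told apart. Stmn2, a microtubule regulator of growing axons, had 174 and 127 FPKM in brain and 0 to 1.04 elsewhere (6.84 ± 0.33, adjusted p = 1.13e-05). Tubb3, the neuronal beta tubulin, had 70.7 and 128 (6.37 ± 0.22, adjusted p = 5.46e-06). Rbfox3, which encodes the nuclear antigen NeuN, had 75.7 and 32.9 (5.49 ± 0.34, adjusted p = 2.67e-05).

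Mapt, the microtubule protein tau, was the neuron gene with the highest level outside brain. It measured 25.3 and 26.6 FPKM in brain, 4.19 and 4.10 in heart, 14.0 and 11.5 in kidney, and 0.182 and 0.474 in liver. Brain was above every other library (2.57 ± 0.18, adjusted p = 4.9e-05), but the difference from kidney alone, 0.98, did not reach the size required for a call (adjusted p = 0.0109).

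All 24 genes of the synaptic vesicle cycle were higher in brain. Of these, 15 passed the filter only with the brain libraries, and the 9 that passed in the other organs were all higher too. These genes cover vesicle membrane proteins, the fusion machinery, active zone scaffolds and endocytosis. Cplx1, a complexin that clamps fusion, had 114 and 142 FPKM in brain (6.55 ± 0.26, adjusted p = 6.53e-06).

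Dnm1, the neuronal dynamin that cuts endocytic vesicles free, had 144 and 123 FPKM in brain, 1.68 and 1.58 in heart, 8.47 and 10.2 in kidney, and 0.188 and 1.49 in liver (5.22 ± 0.27, adjusted p = 1.51e-05). Rab3a, a GTPase of regulated secretion, had 250 and 252 FPKM in brain and also 39.6 and 33.6 in heart (4.29 ± 0.32, adjusted p = 5.85e-05). Atp6v0a1, a subunit of the proton pump, had the smallest difference, 1.40 ± 0.23, with 74.6 and 71.7 FPKM in brain and 13.9 to 44.6 elsewhere (adjusted p = 0.00185), and was not called without kidney (0.95).

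For glutamate, the main excitatory transmitter, 15 of 16 tested genes were higher in brain and none was lower. Of the 6 that passed the filter without the brain libraries, 5 were higher. Grin1, the obligatory subunit of NMDA receptors, had 47.7 and 37.4 FPKM in brain and at most 0.275 elsewhere (5.35 ± 0.18, adjusted p = 5.46e-06). Among the AMPA receptor subunits, Gria2 had 31.7 and 44.4 FPKM (5.12 ± 0.16, adjusted p = 5.46e-06), and Gria3 had 32.1 and 33.1 with 8.39 and 8.48 in heart (3.47 ± 0.16, adjusted p = 9.81e-06). CAMK2A, a kinase of the postsynaptic density, had 97.1 and 89.7 FPKM in brain and 7.34 and 6.62 in heart (5.39 ± 0.25, adjusted p = 9.31e-06).

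Homer1, a postsynaptic scaffold, was the glutamate gene without a call: 8.62 and 8.89 FPKM in brain lay below the 15.7 and 9.93 in heart, and its difference over the 3 organs did not reach the size required (0.55 ± 0.19, adjusted p = 0.0427). Slc17a6, the second vesicular glutamate transporter, was not tested because 1 library alone reached 1 FPKM. It had 0.631 FPKM in the male and 17.3 in the female brain library and at most 0.0253 elsewhere.

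For GABA, the main inhibitory transmitter, 15 of 17 genes were higher and none was lower, but 14 of the 15 passed the filter only with the brain libraries. Of the 3 others 1 was higher. Gad1, which makes GABA from glutamate, had 81.4 and 78.6 FPKM in brain and 0.0643 to 0.651 elsewhere (5.94 ± 0.17, adjusted p = 5.46e-06). Its level was nearly the same in both brain libraries.

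Synthesis and breakdown of GABA differed in their spread over organs. Abat, the transaminase that degrades GABA, had 17.8 and 30.5 FPKM in brain, 0.134 and 0.120 in heart, 42.4 and 33.9 in kidney, and 214 and 137 in liver. It was higher in brain than in heart by 4.43 (adjusted p = 9.71e-05) and lower than in liver by 2.82 (adjusted p = 0.000506). Other settings called it higher: quantile normalization (1.16), 0.1 in place of 1 added to the FPKM (1.04) and the omission of liver (1.88). Without heart it was called lower (-1.75). Over the 3 organs with the reported settings it was not called. Gphn, the gephyrin scaffold of inhibitory synapses, which also makes the molybdenum cofactor, had 12.2 and 12.0 FPKM in brain and 5.93 to 19.0 elsewhere and was not called either.

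Monoamine and acetylcholine genes were mixed: 6 of 10 tested were higher and 3 lower. All 6 higher genes passed the filter only with the brain libraries. Receptors were among the higher ones, such as the muscarinic receptor Chrm1 with 11.5 and 4.71 FPKM in brain against at most 0.0938 (3.03 ± 0.26, adjusted p = 0.000107). Ache, which splits acetylcholine, had 6.66 and 23.0 against 0.143 to 0.893 (3.15 ± 0.35, adjusted p = 0.000312). The 3 lower genes were enzymes with wide metabolic roles. Of these, Ddc, the decarboxylase of dopamine and serotonin synthesis, differed by -2.89, and Maoa, a monoamine oxidase, lay just past the size required for a call, which it missed without the male brain library (-0.84, adjusted p = 0.0582), without heart (-0.30) and with common-median scaling (-0.59).

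Genes that define the transmitter-producing cell groups were low in these brain libraries. Th, the rate-limiting enzyme of dopamine synthesis, had 0.234 and 4.54 FPKM, and Chat, which makes acetylcholine, had 0.0661 and 2.97, both listed at 0 in all 6 other libraries. The dopamine transporter Slc6a3 had 0 and 0.152, and the serotonin synthesis enzyme Tph2 had 0.126 and 0.272. None of these 4 passed the filter for testing.

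Of 20 neuropeptide genes listed, 14 passed the filter and were higher in brain, 11 of them past the filter only with the brain libraries. The 3 that passed in the other organs were higher as well. Sst, which encodes somatostatin of cortical interneurons, had 58.9 and 63.1 FPKM in brain and at most 0.369 elsewhere (5.82 ± 0.17, adjusted p = 5.46e-06). Cck, cholecystokinin, had 116 and 60.2 against 0.125 to 1.89 (5.55 ± 0.35, adjusted p = 2.87e-05). Penk, the enkephalin precursor, overlapped heart: 17.7 and 37.7 FPKM in brain, 38.8 and 11.1 in heart, and at most 0.61 in kidney and liver. Its difference was 3.01 ± 0.49 over the 3 organs (adjusted p = 0.00181) and 0.29 against heart (adjusted p = 0.731). The hypothalamic peptides Hcrt, Pmch and Avp stayed below 0.51 FPKM in both brain libraries and Oxt was listed at 0.

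Of 22 tested voltage-gated channel genes 19 were higher in brain and 2 lower. Of the 7 that passed the filter without the brain libraries, 4 were higher and 2 lower. Of the 2 lower genes 1 passed only with the heart libraries. The sodium channel subunits Scn1a, Scn2a1 and Scn8a were among the higher ones, with Scn2a1 at 14.95 and 8.82 FPKM in brain and at most 0.129 elsewhere (3.57 ± 0.20, adjusted p = 1.92e-05). Kcnc1, a potassium channel of fast-spiking neurons, had 62.9 and 25.5 against at most 0.19 (5.29 ± 0.31, adjusted p = 2.21e-05).

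Among the lower channel genes was Kcnq1, a potassium channel of heart and epithelia. It had 0.0176 and 0.0587 FPKM in brain, 20.2 and 10.6 in heart, 19.9 and 9.80 in kidney, and 0.229 and 0.102 in liver (-2.65 ± 0.25, adjusted p = 0.000161). Hcn2, a pacemaker channel, had 17.2 and 32.9 FPKM in brain and 55.8 and 23.4 in heart, and its difference from heart, -0.58, was not called (adjusted p = 0.357). Its difference over the 3 organs, 2.07, was called, but not without the female brain library with the same genes tested (1.34, adjusted p = 0.0644) or without liver (0.89, adjusted p = 0.131).

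All 15 tested genes of synaptic and axonal adhesion were higher, 10 of them past the filter only with the brain libraries. Nrxn3, a presynaptic neurexin, had 35.0 and 27.9 FPKM in brain and at most 0.378 elsewhere (4.83 ± 0.17, adjusted p = 5.46e-06), and Cntn1, an axonal contactin, had 25.6 and 34.5 against at most 0.0588 (4.90 ± 0.15, adjusted p = 5.46e-06). All 14 calcium sensors and effectors were higher too, 8 of them past the filter only with the brain libraries. Pcp4, a calmodulin regulator, had 203 and 137 FPKM against at most 0.971 (6.89 ± 0.23, adjusted p = 5.46e-06). Calb1, the calcium buffer calbindin, was the exception to a brain-high pattern: kidney had 333 and 282 FPKM, above the 138 and 31.2 of brain, and brain was lower than kidney by 2.20 (adjusted p = 0.0247).

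Among RNA-binding regulators of splicing 11 of 16 were higher and 2 lower. Of the 9 that passed the filter without the brain libraries, 4 were higher and 2 lower. Celf4 had 29.0 and 30.1 FPKM in brain and at most 0.112 elsewhere (4.91 ± 0.14, adjusted p = 5.46e-06). Rbfox1, a regulator shared by neurons and muscle, had 36.6 and 30.2 in brain, 7.92 and 12.0 in heart, and at most 0.39 in kidney and liver (3.85 ± 0.21, adjusted p = 1.67e-05). The polypyrimidine tract proteins ran in opposite directions. Ptbp1, the general form, had 10.6 and 9.79 FPKM in brain, 29.7 and 18.9 in heart, 102 and 45.5 in kidney, and 96.7 and 55.7 in liver (-2.17 ± 0.24, adjusted p = 0.00034). Ptbp2, the neuronal form, had 18.9 and 26.2 in brain, 7.66 and 10.7 in heart, and 1.11 to 3.67 in kidney and liver (2.31 ± 0.16, adjusted p = 4.4e-05). For both genes the brain libraries did not overlap the others.

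**Figure D2:**
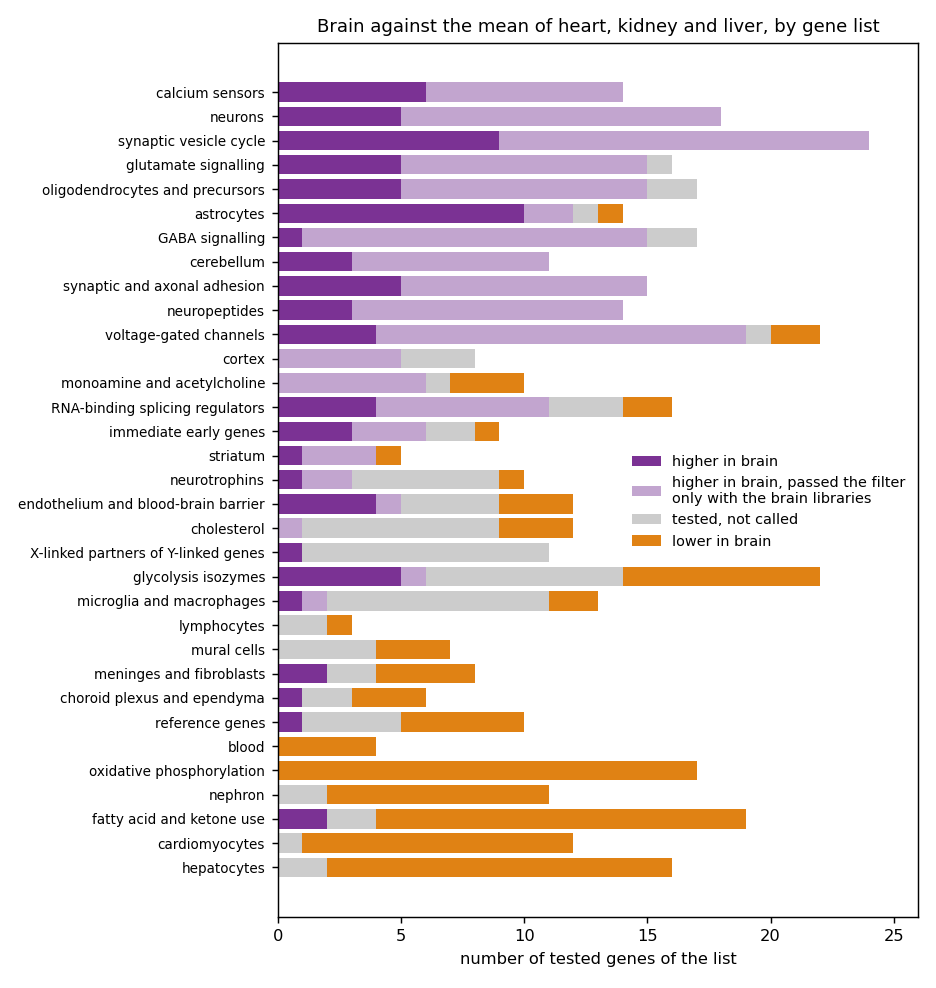
Number of tested genes per list that were higher in brain, not called, or lower in brain (x axis), with lists ordered by the median difference of their tested genes. The pale part of a bar counts genes that passed the filter only with the brain libraries, as for 15 of the 24 synaptic vesicle genes and 13 of the 18 neuron genes, and the oxidative phosphorylation list near the bottom is called lower throughout, 17 of 17 with the deposited values.

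Of 14 astrocyte genes 12 were higher and 1 lower. Of the 11 that passed the filter without the brain libraries, 10 were higher and 1 lower. Gfap, the astrocyte intermediate filament, had 48.9 and 83.9 FPKM in brain and 0.0173 to 2.20 elsewhere (5.55 ± 0.21, adjusted p = 6.15e-06). Slc1a3, a glutamate uptake transporter, had 133 and 92.5 against 0.45 to 1.70 (5.84 ± 0.23, adjusted p = 6.62e-06), and the water channel Aqp4 had 73.1 and 103 with 4.23 and 6.81 in kidney (5.45 ± 0.18, adjusted p = 5.46e-06).

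Several astrocyte markers were not particular to brain among these organs. Aldh1l1, a folate enzyme, had 1.83 and 1.99 FPKM in brain, 0.0656 and 0.0239 in heart, 15.2 and 22.0 in kidney, and 104 and 90.7 in liver, and was the member called lower (-2.11 ± 0.20, adjusted p = 0.00016), but not without liver (-0.63). Gja1, the gap junction protein connexin 43, had 39.6 and 56.1 FPKM in brain and 254 and 290 in heart. It was called higher over the 3 organs (1.21 ± 0.22, adjusted p = 0.00309) but was lower than heart by 2.50 (adjusted p = 0.000394), and without the female brain library its difference of 0.92 was not called. Nor was it called without kidney (0.22) or without liver (0.35).

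Oligodendrocyte genes were higher in 15 of 17 cases, 10 of which passed the filter only with the brain libraries. Of the other 7 genes 5 were higher. Besides Mbp, Mobp, a myelin-associated protein, had 27.6 and 186 FPKM in brain and at most 0.182 elsewhere (6.08 ± 0.52, adjusted p = 0.000105). Olig1, a transcription factor of the lineage, had 14.4 and 27.2 against at most 0.0878 (4.35 ± 0.21, adjusted p = 1.15e-05). Aspa and Cspg4 were not called. Aspa, which hydrolyses N-acetylaspartate, had 5.52 and 18.8 FPKM in brain but 146 and 108 in kidney.

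Microglial and macrophage genes showed no common direction: 2 of 13 were higher, 2 lower and 9 not called, with a median of -0.40. The filter was passed without the brain libraries by 12 of them, of which 1 was higher and 2 lower. Cx3cr1 and P2ry12, receptors that mark resting microglia, were the higher ones. P2ry12 had 7.77 and 10.7 FPKM in brain, 2.27 and 0.501 in heart, 1.23 and 0.290 in kidney, and 0.834 and 0.513 in liver (2.46 ± 0.30, adjusted p = 0.000481). Cd68, a lysosomal protein of phagocytes, was lower with 1.21 and 0.880 FPKM against 2.42 to 44.2 (-2.62 ± 0.35, adjusted p = 0.000787), and so was the adaptor Tyrobp (-1.35 ± 0.33, adjusted p = 0.0108), which without the male brain library had an adjusted p of 0.133 and which was not called after quantile normalization (-0.89) or common-median scaling (-0.95). Quantile normalization and scaling to a common median moved the list's median to 0.01, and under the latter 1 gene in place of 2 was lower. The all-gene medians under these settings were -0.18 and 0.05. Less the all-gene median of the same setting, the list's median was -0.13 as reported, 0.19 after quantile normalization and -0.04 after common-median scaling.

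Vessel genes had no common direction. Of 12 endothelial genes 5 were higher, 3 lower and 4 not called, and the lower share, 3 of 12, is near that of all genes tested, 27.1%. Without the brain libraries 11 passed the filter, of which 4 were higher and 3 lower. The higher ones were Slco1c1, Slc2a1, Slc7a5, Slco1a4 and Cldn5, a tight junction protein. Slco1c1, which carries thyroid hormone, had 16.7 and 23.7 FPKM in brain and at most 0.215 elsewhere (4.30 ± 0.16, adjusted p = 5.74e-06), and Slc2a1, the barrier's glucose transporter, had 19.2 and 24.5 against 2.31 to 17.6 (1.57 ± 0.32, adjusted p = 0.00517). Without the female brain library the latter had an adjusted p of 0.0552. Slco1a4, an organic anion carrier, was higher over the 3 organs but lower than liver by 2.76 (adjusted p = 0.00198). The barrier transporters Abcb1a (0.18) and Mfsd2a (0.66) were not called, and Mfsd2a was lower than liver by 2.80 (adjusted p = 0.000367). Among the lower ones Pecam1, an adhesion molecule, had 3.80 and 3.65 FPKM in brain, 75.8 and 62.1 in heart, 29.5 and 15.8 in kidney, and 13.6 and 12.6 in liver (-2.57 ± 0.22, adjusted p = 0.000105). Cdh5 and Kdr differed by -1.65 and -2.32, and Cdh5 was not called without heart (-0.55). Without the female brain library and with the same genes tested, 2 in place of 5 genes of this list were higher, and without the male one 3 were.

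Markers of other brain coverings and cavities were mixed. Of 8 meningeal and fibroblast genes 2 were higher, Ptgds and Igf2, and 4 were lower, among them Dcn, the proteoglycan decorin, with 8.75 and 15.8 FPKM in brain against 823 and 344 in heart (-2.80 ± 0.42, adjusted p = 0.00121). In place of 4, 3 genes of this list were lower under quantile normalization and under common-median scaling, and 2 without heart. The list's median of -1.01 was -0.67 without the male brain library and -1.44 without the female one. Of 7 mural cell genes none was higher and 3 were lower. Of the choroid plexus genes 6 could be tested, with 1 higher and 3 lower. The filter was passed only with the kidney libraries by 3 of the 6, and only with the brain libraries by 1. Their median of -1.11 depended on the brain library used. With the same genes tested it was -0.04 without the male brain library and -2.31 without the female one. Pituitary hormones were near 0, with Gh1 and Tshb listed at 0 in both brain libraries.

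The defining genes of the other organs were low in brain. Brain was lower for 11 of 12 cardiomyocyte genes, 14 of 16 hepatocyte genes and 9 of 11 nephron genes. Each of these lists rests on the organ it was named for. Only with that organ's libraries did 3 cardiomyocyte, 4 hepatocyte and 9 nephron genes pass the filter. Of these, 3, 4 and 7 were called lower. Without heart none of 9 cardiomyocyte genes tested was lower and 2 were higher, without kidney none of 2 nephron genes was lower and 1 was higher, and without liver 3 of 12 hepatocyte genes were lower and 1 higher. The summed levels were 16.8 and 14.9 FPKM in brain against 126935 and 72582 in heart for the cardiomyocyte list. They were 5.50 and 5.64 against 21048 and 20938 in kidney for the nephron list. For hepatocytes they were 102 and 222 against 113054 and 79006 in liver, where Tf, transferrin, which oligodendrocytes also make, supplied 45.8 and 211 of the brain sums. Alb, albumin, was listed at 0 in both liver libraries while it had 26.1 and 3.55 FPKM in brain and 97.5 and 12.5 in heart, so its listed values do not order the organs.

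Blood genes were lower in brain, 4 of 4, with Hbb at 205 and 163 FPKM against 293 to 2906 elsewhere (-2.02 ± 0.38, adjusted p = 0.00336). Of the 4 genes 1 passed the filter only with the kidney libraries. After quantile normalization Hbb differed by -0.01, and without heart its difference of -1.11 was not called (adjusted p = 0.0786). Under quantile normalization 2 of the 4 were lower, and without the female brain library, with the same genes tested, 1 was. Of 3 lymphocyte and antigen presentation genes tested 1 was lower. This gene, Cd74, an invariant chain of antigen presentation, had 15.4 and 20.5 FPKM in brain, 1014 and 528 in heart, 816 and 384 in kidney, and 118 and 103 in liver (-4.25 ± 0.34, adjusted p = 8.28e-05).

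The pair of brain libraries was also compared with each other. Of 14547 genes, 33 were higher in the male and 40 in the female brain library by at least 2 on the log2 scale with a level of at least 5 FPKM in one of them. By the same measure 67 and 21 genes differed in heart, 262 and 35 in kidney, and 180 and 48 in liver, so the brain pair had the fewest in sum. With 1 library per sex, a difference of animal, sex, dissected region or preparation cannot be told apart, and no test of these differences is possible.

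Cerebellar genes were higher in the male brain library. For 11 of 12 the male value was above the female one, the median male minus female difference was 2.23, and the list's summed level was 898 FPKM against 154. Pcp2, a Purkinje cell protein, had 251 and 52.5 FPKM, Gabra6, the GABA receptor subunit of cerebellar granule cells, had 213 and 26.4, and Cbln1, a granule cell synapse organiser, had 140 and 20.96. For 9 of the 12 both brain libraries lay above every heart, kidney and liver library. All 11 tested genes were called higher, 8 of which passed the filter only with the brain libraries, and 9 without the male brain library with the same genes tested.

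Myelin genes ran the other way. All 17 oligodendrocyte genes were higher in the female brain library, the median male minus female difference was -1.84, and the summed level was 603 FPKM against 3580. The female library was also the higher one for 14 of 15 microglial, 12 of 14 astrocyte and 9 of 12 endothelial genes. Their median differences were smaller, -0.29, -0.49 and -0.28. The male library was the higher one for 16 of 24 synaptic vesicle genes and 12 of 14 calcium sensors. The share over all genes was not counted. Cortical genes stood at similar levels, 91.4 against 101 FPKM in sum, with 4 of 10 higher in the male and 6 in the female library. Tbr1, a transcription factor of cortical projection neurons, had 5.56 and 6.60 FPKM and was listed at 0 in all 6 other libraries. Of 5 striatal genes tested 4 were higher than in the other organs, 3 of which passed the filter only with the brain libraries, and 1, the adenosine receptor Adora2a, was lower with 0.741 and 0.819 FPKM in brain (-1.17 ± 0.18, adjusted p = 0.00133). Adora2a was not called without the male brain library (-0.98), without heart (-0.86), with common-median scaling (-0.93) or with a pseudocount of 5 (-0.50). The synaptic vesicle list summed to 1817 and 1777 FPKM.

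The genes that differed most between the brain libraries were taken after their values had been seen, as the 10 largest in each direction with at least 5 FPKM. On the male side, beside the Y-linked EIF2S3Y and DDX3Y and the cerebellar Car8 and Gabra6, were Fat2, a cadherin of granule cells, with 26.5 and 2.30 FPKM, and Neurod1, a neuronal transcription factor, with 38.8 and 4.66. Hes3, Rgl3, Atp2a3 and Shf were the other 4. On the female side were Ttr, the thyroid hormone carrier made by choroid plexus and liver, with 7.27 and 403 FPKM, and Slc17a6. S100a5 had 0 and 12.6 FPKM, Cdhr1 had 0.340 and 15.7, and Hoxb5, a homeobox gene of the hindbrain and spinal cord, had 0 and 14.4. Spp1, Pcp4l1, Gnas and PORF1 were also among them, of which Gnas and PORF1 were listed at 0 in the male brain library.

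**Figure D3:**
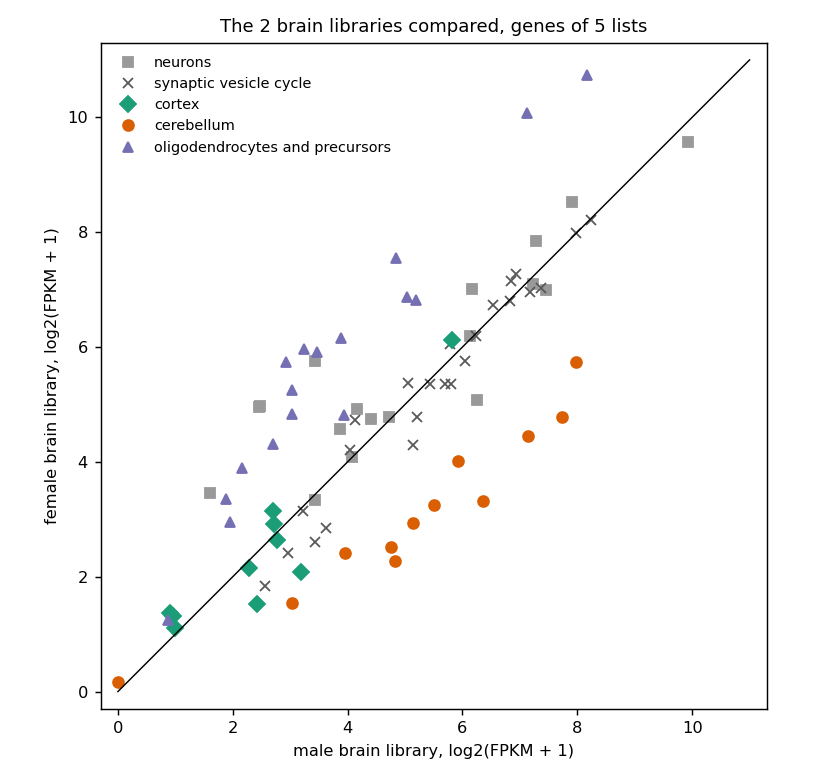
Level in the male (x axis) against the female brain library (y axis) as log2(FPKM + 1), 1 point per gene for 5 gene lists, with the line of equal levels. Cerebellar genes lie below the line for 11 of 12 genes, oligodendrocyte genes lie above it for 17 of 17, and cortical and synaptic vesicle genes lie along it.

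The 12 genes with the largest deficit in brain, among those with both brain libraries below every other library, were mostly enzymes and carriers of liver and kidney. Hpd, an enzyme of tyrosine breakdown, had 1.75 and 0.495 FPKM in brain, 9.37 and 5.58 in heart, 281 and 477 in kidney, and 2904 and 2945 in liver (-6.68 ± 0.34, adjusted p = 1.4e-05). Cyp2e1, a cytochrome P450 that oxidises ethanol, had 2.76 and 0.631 in brain and 5.30 to 5974 elsewhere (-5.84 ± 0.51, adjusted p = 0.000119). In both cases the ranking was liver, kidney, heart and brain.

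Several of the rest act on drugs or fats: Gsta2, a glutathione transferase (-5.69), Cyp4b1, another P450 (-5.98), Eci3, an isomerase of fatty acid oxidation (-6.02), and Acadm, the medium-chain acyl-CoA dehydrogenase (-5.51). Slc22a18, a transporter (-6.11), Spink1, a trypsin inhibitor (-6.60 ± 0.89), Mettl7b (-5.67) and Osgin1 (-5.49) followed. Acadm, Dpt and Rbpms had their highest mean in heart, where Acadm had 869 and 812 FPKM. Dpt, the matrix protein dermatopontin, had 0.247 and 0.315 FPKM in brain, 79.3 and 113 in heart, 38.2 and 19.6 in kidney, and 68.5 and 96.7 in liver (-5.57 ± 0.31, adjusted p = 1.92e-05). Rbpms, an RNA-binding protein, had 1.01 and 0.592 in brain against 28.3 to 208 (-5.46 ± 0.34, adjusted p = 2.67e-05).

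Fatty acid and ketone genes were lower in brain for 15 of 19 and higher for 2, with a median of -2.50. Acadl, the long-chain acyl-CoA dehydrogenase, had 5.69 and 11.1 FPKM in brain, 955 and 1183 in heart, 65.2 and 64.0 in kidney, and 230 and 294 in liver (-4.87 ± 0.25, adjusted p = 1.31e-05). Within the carnitine palmitoyltransferases the direction depended on the isoform. Cpt1a, the liver form, was lower (-2.09 ± 0.35, adjusted p = 0.00214), and Cpt1c, the neuronal form, was higher with 20.2 and 14.2 FPKM in brain against 0.55 to 2.54 (2.96 ± 0.17, adjusted p = 2.19e-05). The call of Cpt1a was lost without the male brain library with the same genes tested (-1.67, adjusted p = 0.0581).

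Fabp7, a fatty acid carrier of radial glia and astrocytes, was the second higher gene, with 21.3 and 60.1 FPKM in brain. Its levels in liver were 138 and 46.7, and it was not called against liver alone (-1.14, adjusted p = 0.15). Oxct1, which lets tissues burn ketone bodies, had 28.5 and 34.0 FPKM in brain, 385 and 515 in heart, 144 and 138 in kidney, and 0.382 and 1.59 in liver. Brain was above liver by 4.08 (adjusted p = 4.33e-05) and below heart by 3.80 (adjusted p = 8.91e-05), and the difference over the 3 organs was not called.

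All 17 nuclear genes of oxidative phosphorylation were lower in brain with the deposited values, with a median of -2.03. Atp5b, the catalytic beta subunit of ATP synthase, had 303 and 326 FPKM in brain, 5883 and 4658 in heart, 2059 and 791 in kidney, and 1356 and 997 in liver (-2.65 ± 0.39, adjusted p = 0.00117). Heart was highest and brain lowest, with no overlap of brain and the rest. Cox4i1, a subunit of cytochrome oxidase, had 194 and 202 FPKM in brain against 301 to 1381 (-1.70 ± 0.28, adjusted p = 0.00183), and Cyc1, cytochrome c1, had 114 and 88.4 against 194 to 2572 (-2.63 ± 0.35, adjusted p = 0.000794).

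The count changed with the scaling of the libraries. Quantile normalization called 3 of the 17 genes lower and 1 higher, with a median of -0.44, while scaling to a common median called 16 lower with a median of -1.60. Less the all-gene median of the same setting, the list's median was -1.75 as deposited, -0.27 after quantile normalization and -1.66 after common-median scaling. After quantile normalization Atp5b differed by -0.33, Cyc1 by -0.84 and Cox4i1 by 0.38, and none of the 3 was called. The FPKM totals of the libraries were lowest in brain, as was the list's summed level, 1831 and 1806 FPKM. The totals were highest in liver, but the list's sum was highest in heart, 24953 and 20966 against 6506 and 4596 in liver. What part the totals have in the result was not tested. The counts of the 10 reference genes changed as well: 5 were lower and 1 higher with the deposited values, and 2 lower and 3 higher after quantile normalization. Actb, beta actin, had 336 and 336 in brain and 329 to 683 elsewhere and was not called (-0.39 ± 0.29, adjusted p = 0.275), whereas after quantile normalization Actb was called higher (1.84).

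Glycolytic enzymes did not move as a block: 6 of 22 were higher, 8 lower and 8 not called, with a median of -0.25. The filter was passed without the brain libraries by 21 of them, of which 5 were higher and 8 lower. Of the 8 lower genes 1 passed only with the libraries of 1 other organ. The isozymes of a step took different organs. Of the aldolases, Aldoc was high in brain alone as given above, and Aldoa had 284 and 254 FPKM in brain and 801 and 1012 in heart. Of the enolases, Eno2 was high in brain, Eno3, the muscle form, was high in heart at 334 and 230 FPKM against 3.38 and 2.12 in brain (-2.10 ± 0.17, adjusted p = 8.9e-05), and Eno1 differed by -1.08 (adjusted p = 0.0365). Without heart Eno3 was not called (-0.03). The call of Eno1 was lost under most alternatives, among them no animal block (adjusted p = 0.0591), no filter (adjusted p = 0.0673), common-median scaling (-0.65), each mean of 2 organs, the omission of the male brain library (-0.70, adjusted p = 0.292) or of any heart or liver library, and quantile normalization, where its difference was 0.53.

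Pfkp, the platelet-type phosphofructokinase, had 64.0 and 65.3 FPKM in brain, 6.43 and 8.65 in heart, 7.66 and 12.9 in kidney, and 0.432 and 0.682 in liver (3.65 ± 0.19, adjusted p = 1.52e-05). Both brain libraries lay above all others. Pkm, the pyruvate kinase of muscle and brain, had 160 and 142 FPKM in brain and 171 and 216 in heart and was higher over the 3 organs (1.93 ± 0.21, adjusted p = 0.000303) but not without liver (0.56, adjusted p = 0.148), and Pklr, the liver form, was lower (-3.52 ± 0.58, adjusted p = 0.00194). The call of Pklr was lost without the male brain library with the same genes tested (-3.36, adjusted p = 0.0557).

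Of the lactate dehydrogenase subunits, Ldhb had 215 and 245 FPKM in brain, 3166 and 2823 in heart, 449 and 336 in kidney, and 3.20 and 3.81 in liver. It was lower than in heart by 3.70 (adjusted p = 0.000112) and higher than in liver by 5.68 (adjusted p = 1.29e-05), and was not called over the 3 organs. Other settings did call Ldhb: higher after quantile normalization (2.18) and without heart (2.46), and lower without liver (-2.23). Ldha had 60.7 and 46.7 in brain against 60.6 to 981 elsewhere (-2.36 ± 0.28, adjusted p = 0.000479), and after quantile normalization its difference of -0.87 was not called. Quantile normalization changed the list's counts to 12 higher and 5 lower, and common-median scaling to 7 and 6. Aldoc, Eno2, Pfkp and Pklr kept their calls under both.

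**Figure D4:**
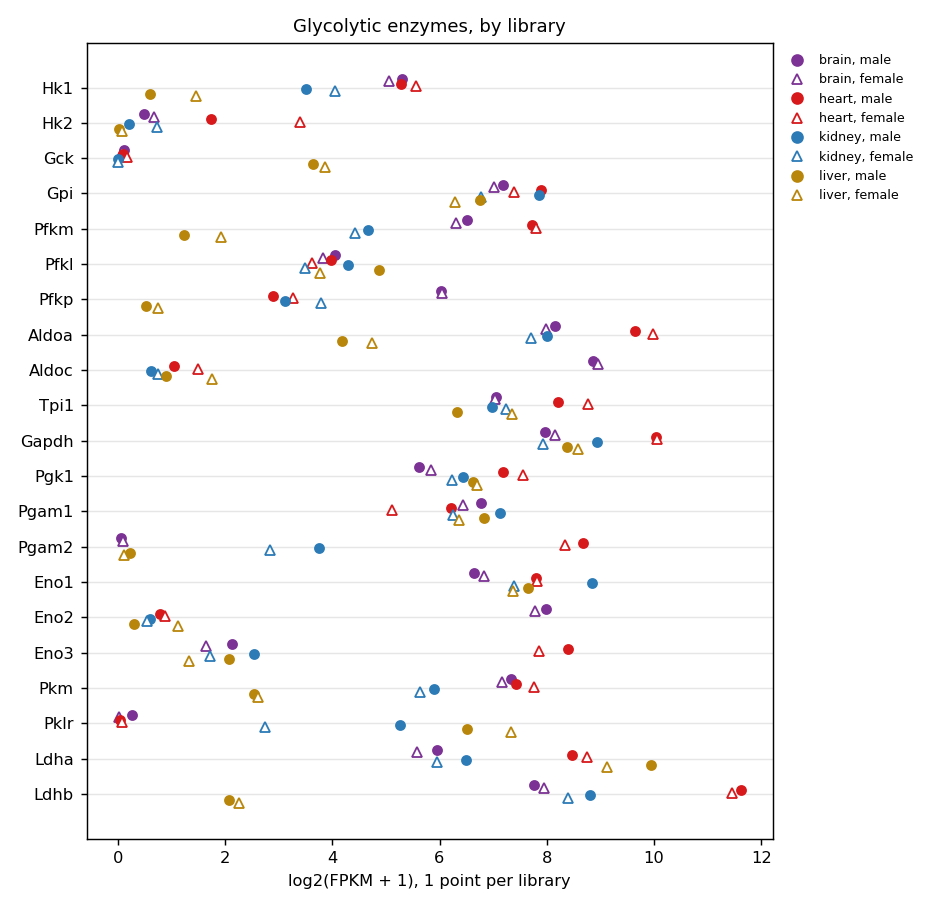
Levels of 21 of the 22 glycolytic enzymes as log2(FPKM + 1) on the x axis, 1 point per library, with organs by colour, filled circles for males and open triangles for females. Brain points lie right of all others for Aldoc, Eno2 and Pfkp, and Eno3 reaches 334 and 230 FPKM in heart against 3.38 and 2.12 in brain.

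In cholesterol metabolism 1 of 12 genes was higher, 3 were lower and 8 not called, and the lower share is near that of all genes tested, 27.1%. Against heart 9 were higher and none lower, against kidney 3 and 2, and against liver 1 and 10. The gene higher over the 3 organs was Cyp46a1, the neuronal enzyme that turns cholesterol into the form exported from brain. This gene passed the filter only with the brain libraries. It had 43.5 and 31.8 FPKM in brain, 0.0219 and 0.0495 in heart, 0.237 and 0.0375 in kidney, and 0.116 and 0.352 in liver (5.08 ± 0.19, adjusted p = 5.74e-06). Cyp7a1, the first enzyme of bile acid synthesis, was lower, with 0.0938 and 0 FPKM in brain and 61.1 and 102 in liver (-2.07 ± 0.22, adjusted p = 0.000262). Cyp7a1 passed the filter only with the liver libraries. Dhcr7 was lower too, but not without liver (-0.35). Apoe, the main lipid carrier of brain, had 525 and 469 FPKM in brain, 56.8 and 38.5 in heart, 404 and 37.7 in kidney, and 29061 and 10594 in liver. It was higher than in heart by 3.38 (adjusted p = 0.009) and lower than in liver by 5.14 (adjusted p = 0.00111). With quantile normalization 5 genes of this list were higher, and without the liver libraries 7 were.

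Immediate early genes, which neurons switch on with activity, were higher for 6 of 9 and lower for 1. Of the 5 that passed the filter without the brain libraries, 3 were higher and 1 lower. Arc, a synaptic regulator, had 18.2 and 18.0 FPKM in brain and 0.0895 to 0.617 elsewhere (3.79 ± 0.14, adjusted p = 6.02e-06). Npas4 had 3.52 and 5.69 FPKM and was listed at 0 in all 6 others. Egr1 had 31.3 and 27.2 against 2.45 to 17.3 (2.06 ± 0.48, adjusted p = 0.00867), with an adjusted p of 0.0799 without the male brain library. Junb had no common order, with 19.1 and 10.3 FPKM in brain and 117 and 4.41 in liver, and Ier2 was lower (-1.23 ± 0.31, adjusted p = 0.012), with an adjusted p of 0.119 without the male brain library and a difference of -0.59 without liver that was not called.

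Of 10 neurotrophin genes 3 were higher, the receptors Ntrk2, Ntrk3 and Gfra2, and 1, the ligand Ntf3, was lower. The filter was passed without the brain libraries by 7 of them, of which 1 was higher and 1 lower. Without the female brain library Ntf3, at -0.89, was not called, and with the same genes tested neither was Gfra2 (1.17, adjusted p = 0.0682). Gfra2 was not called without liver (0.88), nor Ntf3 without kidney (-0.94). Ntrk2, the receptor of BDNF, had 8.85 and 18.3 FPKM in brain and at most 0.449 elsewhere (3.57 ± 0.26, adjusted p = 5.75e-05). The ligand Bdnf had 2.88 and 1.73 in brain, 3.95 and 3.05 in heart and at most 0.0209 in kidney and liver. It exceeded kidney by 1.68 and liver by 1.69 (adjusted p = 0.000549 and 0.000374), not heart, where the difference was -0.46. Over the 3 organs Bdnf differed by 0.97 and was not called. It was called higher with common-median scaling (1.23), a pseudocount of 0.1 (2.71) and without heart (1.68).

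By level alone, the 8 most abundant genes in brain were TMSB10, an actin-sequestering peptide, with 3908 and 5296 FPKM, the ribosomal protein gene RPS29 with 1915 and 1475, Ptgds, the ubiquitin gene UBB, Mbp, Snap25, the proton pump subunit Atp6v0c and the isomerase PPIA. Of these, Ptgds, Mbp and Snap25 were higher in brain, RPS29 was lower with 2866 to 18714 FPKM elsewhere (-2.45 ± 0.53, adjusted p = 0.00657) but at 0.83 and not called after quantile normalization, and the brain libraries of the 4 others overlapped the other organs. Without the male brain library and with the same genes tested, RPS29 was not called (-1.77, adjusted p = 0.166). Small ribosomal and ubiquitin genes have near-identical copies in the genome, and how the authors' counting shared reads among them is not stated.

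The series was designed around Y-linked genes, and 12 of them are in the rat table. Every female library was listed at 0 for all 12, in brain as in the other organs. In the male brain library EIF2S3Y, a translation initiation factor subunit, had 18.6 FPKM, DDX3Y, an RNA helicase, had 13.6, the histone demethylases KDM5D and UTY had 3.505 and 2.71, and a gene the table names Med14X had 2.45. The other 7 were at most 0.0658 FPKM in male brain.

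EIF2S3Y was lowest in brain among the 4 male libraries, with 39.1 FPKM in heart, 27.6 in kidney and 30.4 in liver. UTY was also lowest in brain, against 5.38 in heart, 2.96 in kidney and 3.10 in liver. KDM5D was highest in brain, against 2.67, 2.21 and 2.93, and so was Med14X, against 1.65, 2.21 and 1.30. DDX3Y lay between, with 19.5, 9.70 and 15.8 FPKM. With 1 male library per organ none of these orders can be tested.

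The X-linked partners mostly had no brain difference that passed the test. Of 11 tested, 1 was higher: Tspyl2, with 10.4 and 11.6 FPKM in brain and 0.410 to 11.4 elsewhere (1.98 ± 0.31, adjusted p = 0.0015). It overlapped the female liver library. With quantile normalization 4 were higher and with common-median scaling 2. In male brain the level of the Y gene relative to its X partner was 1.29 for EIF2S3Y over Eif2s3, 0.732 for UTY over Kdm6a, 0.592 for KDM5D over Kdm5c, 0.461 for Med14X over Med14 and 0.382 for DDX3Y over Ddx3x. In male heart the same ratios were 1.81, 1.30, 1.05, 0.560 and 0.662, each above its brain value. In male kidney they were 1.06, 0.780, 0.599, 0.955 and 0.322, and in male liver 1.35, 0.608, 0.456, 0.734 and 0.469, with values on both sides of those in brain.

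Kdm5c had 5.92 and 6.02 FPKM in male and female brain, whereas in heart it had 2.54 and 6.74, in kidney 3.69 and 8.54, and in liver 6.43 and 9.95. The female value was thus above the male one in each of the 4 organs, by the smallest margin in brain.

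**Figure D5:**
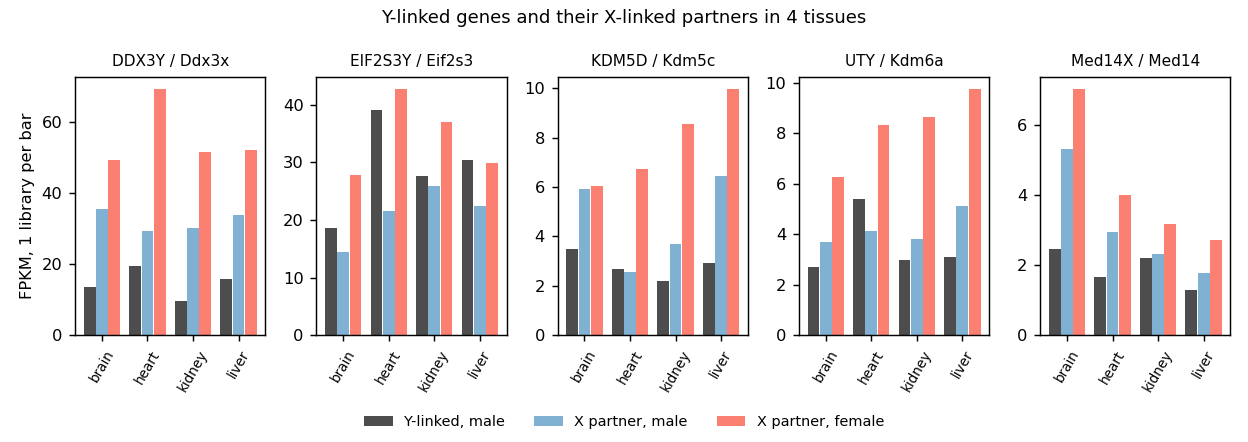
Levels in FPKM (y axis, from 0, a scale of its own in each panel) of 5 Y-linked genes in the male library and of their X-linked partners in the male and female libraries of each organ, 1 library per bar. The Y-linked bar exceeds the male X-linked bar in brain for EIF2S3Y alone, 18.6 against 14.4 FPKM.

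Across chromosomes, 125 of 438 tested X-linked genes were higher in brain, 28.5%, against 2439 of 14104 autosomal genes, 17.3%. The share on single autosomes ran from 13.1% on chromosome 17 to 21.4% on chromosome 15. X-linked genes were lower in brain in 91 cases, 20.8%, and their median difference was 0.17 against -0.29 for autosomal genes. The split by chromosome was made after these values had been seen and has no test. Nor are the shares separated for genes that passed the filter only with the brain libraries.

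Low levels of brain genes were listed in the other organs. For 49 genes with a brain mean of at least 100 FPKM and a difference of at least 5, the median level was 0.693% of the brain mean in the female liver library, with 35 of the 49 at 1 FPKM or above. It was 0.033% in the male liver library, with 1 of 49, and 0.224% to 0.391% in the heart and kidney libraries. Without the female liver library 2550 genes were higher and 3820 lower in brain.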

How the data were processed

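RNA sequencing levels of rat brain, heart, kidney and liver were taken from one table, 1 male and 1 female column per organ. The authors deposited FPKM values per gene. TopHat 1.4.0 and Cufflinks 2.0.0 are named per the submitters' processing notes, and the values were normalized across tissues by the authors by a method that is not stated. The sources used here name no rat genome build, annotation or filter for these values, and depth is unknown. The 2 gonad columns were not used. Library preparation is described in the labels for other species only.

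From the table, 13 mitochondrial genes were left out of 20486, and 14547 genes that reached 1 FPKM in 2 or more of the 8 libraries were tested. limma 3.58.1 (R 4.3.3) was run on log2(FPKM + 1) with organ and animal as terms and a mean-variance trend, leaving 3 residual degrees of freedom. The contrasts were brain minus the mean of the other organs, and brain minus each. A call needed a Benjamini-Hochberg adjusted p below 0.05 and a difference of at least 1. On simulated data, 74% of 100 genes changed by 2 and 96% of 100 changed by 4 were recovered. The simulation used normal noise, gave heart, kidney and liver the same mean and changed only genes of higher mean level. These rates therefore do not cover low genes or genes that differ among the other organs. Tables and figures were made with Python 3.11.15.

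The animal block rests on the labels, which give 1 individual per sex. Male minus female differences correlated between organs across genes at 0.142 to 0.217 for brain with another organ and 0.429 to 0.515 among the others.

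Named genes were the 15 called higher and the 12 called lower with the largest difference, among genes whose brain libraries lay wholly above or below the rest. To these came the 6 most abundant in brain of those at 0 elsewhere, the 8 most abundant in brain, Y-linked genes with their X-linked partners, and members of gene lists; some genes these rules name are not reported here. Lists and members were chosen with earlier results of these data known. Of the listed genes 12 were not found under their symbols, and 764 genes share a symbol with another.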

Additional observations from a re-analysis of the deposited data

Results flagged for a closer look

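Junb, an activity-regulated transcription factor, differed between the animals. In the male, brain lay below every other organ, with a difference of -1.35 from their mean on the log2(FPKM + 1) scale and 19.1 FPKM in brain and 27.4, 39.1 and 117 in heart, kidney and liver. In the female, brain lay above every other organ, with 10.3 FPKM against 9.12, 8.80 and 4.41. The difference between the animals was not tested, since each organ has 1 library per sex.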

How the results depend on the processing

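With 2564 genes higher and 3937 lower as reported, a pseudocount of 5 gave 1371 and 2560, and for single organs 1403 higher and 2329 lower against heart, 1393 and 2083 against kidney, and 1735 higher against liver. A filter at 5 FPKM gave 1707 higher, 2196 higher than liver and 1665 with both brain libraries above all others; fewer genes were tested. A pseudocount of 0.1 gave 3185 and 4623, no filter 2607 and 3823, and quantile normalization 2963 and 3503. Leaving out 1 library gave 1544 to 2576 genes higher over the 3 organs, 1574 to 2704 against heart and 1460 to 2524 against kidney. The low ends are without the male brain library, and 1617, 1732 and 1548 were higher without the female one; with the same genes tested, an alternative chosen after seeing the data, the counts were 2482 and 2559 over the 3 organs. Without the replicate block 2522 genes were higher and 3739 lower, 2556 and 3149 against heart, 2404 and 2788 against kidney, and 3225 and 3842 against liver.

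Of 125 genes whose difference or call is given, 37 changed direction or call under some alternative. Of the 86 with a value under every alternative 55 changed under none, and of the 39 without a value under some, 33 changed under none of the others; signs turned for 10. After quantile normalization the values were Actb 1.84, Cox4i1 0.38, Cspg4 -0.17, Eno1 0.53, Junb 0.15, Oxct1 0.19 and RPS29 0.83, and after common-median scaling Actb 0.036. With a pseudocount of 5 they were Abat -0.25 and Cspg4 -0.0091. Not called with that pseudocount were also Cx3cr1 (0.86), Npas4 (0.93), Gja1 (0.81), Gfra2 (0.62), Ntf3 (-0.53), Ier2 (-0.80) and Maoa (-0.89). Without heart the turned values were Abat -1.75 and Oxct1 0.97, without kidney Aspa 0.98 and Oxct1 0.14, and without liver Cspg4 -0.33 and Ldhb -2.23. Leaving out 1 library gave a range from -0.22 (without female brain) to 0.84 for Abat, from -1.65 to 0.64 (without male brain) for Aspa, and from -1.35 to 0.47 (without male brain) for Junb, with 0.06 without male liver. The cause of these changes was not tested. The depth is unknown, so its limit on low genes cannot be given.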
